A study of Mus musculus with 4 samples.

Results

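The DNA methylation writers and erasers examined here are 8 genes, Dnmt1, Dnmt3a, Dnmt3b, Dnmt3l, Tet1, Tet2, Tet3 and Uhrf1, taken by symbol from the 55426 rows of the deposited table. Each symbol matched 1 row, and all 8 genes reached the mean of 1 FPKM (fragments scaled to transcript length and library depth) required for testing. Poly(A) RNA was sequenced from mouse retinal organoids at day 6, aggregates of pluripotent stem cells guided in culture towards retinal progenitors. Every library came from the Rx:GFP Mettl3 KO line, whose genotype is given as Mettl3 KO with Dox-inducible HA-METTL3, so the untreated controls carry the knockout and the inducible construct too. METTL3 catalyses N6-methyladenosine formation in RNA. The 2 untreated libraries received no doxycycline (Dox), and the 2 Dox libraries received it at 2 µg/ml for 6 days, with AGN at 0.1 µM in the medium of all 4. The titles call the samples EV and EV+Dox without explaining EV, and the labels state neither the promoter of the construct nor whether the line is a single clone. No label says that the replicates came from separate differentiations, so p-values measure only the spread between these libraries, which may be technical. RNA levels were measured; the methylation of DNA was not.

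Cytosine methylation at CpG dinucleotides is laid down by DNMT3A and DNMT3B on unmethylated DNA (de novo methylation) and copied after replication by DNMT1, which UHRF1 brings to hemimethylated sites. DNMT3L has no catalytic activity of its own and stimulates DNMT3A and DNMT3B. The TET enzymes oxidise 5-methylcytosine, which leads to its removal through base excision repair or through dilution at cell division. In the early embryo Dnmt3b and Dnmt3l are known from pluripotent and epiblast cells, Dnmt3a persists in neural progenitors, and TET activity has been linked to retinal neuron formation.

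The values rest on about 31700000 to 35000000 fragments per library, a depth fitted from the steps between low FPKM values, of which 85.4% to 86.2% came out as whole fragments within 0.1 fragment, against 20% by chance. Mettl3 stood at 40.33 and 37.98 FPKM untreated and 45.2 and 46.37 FPKM with Dox (log2 fold change 0.22, adjusted p = 0.122 in limma), and gene-level values do not separate the inducible copy from the knocked-out locus. The reporter row eGFP went from 0.26 and 0.42 to 333.52 and 361.13 FPKM, and the eye-field gene Rax from 1.12 and 0.82 to 201.14 and 227.98 FPKM. Rax, a defining retinal progenitor gene, was thus nearly absent from the untreated libraries, although these too are labelled retinal organoids. Pax6, a broader neural and eye progenitor gene, was at 127.76 and 118.86 FPKM in them.

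The 5′ flanks of the 3 genes that rose with Dox are shown because these genes moved together; capitals mark CpG dinucleotides, the substrate of the enzymes themselves. Each run is the 250 bases before a RefSeq transcription start on GRCm38.p6, 5′ to 3′ on the plus strand, the strand of all 3 genes. Of the 3 Dnmt3a windows, those shown are chr12:3806730-3806979, before an upstream start, and chr12:3891494-3891743, before an internal start. The Dnmt3b window is chr2:153649199-153649448, and the Dnmt3l window is chr10:78049592-78049841, the second of its 3 RefSeq starts.
Dnmt3a upstream: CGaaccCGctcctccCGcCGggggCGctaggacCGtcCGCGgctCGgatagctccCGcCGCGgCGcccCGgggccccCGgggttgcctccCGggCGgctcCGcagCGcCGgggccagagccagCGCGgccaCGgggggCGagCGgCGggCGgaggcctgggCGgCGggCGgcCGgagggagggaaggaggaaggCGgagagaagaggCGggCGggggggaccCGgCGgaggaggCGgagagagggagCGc
Dnmt3a internal: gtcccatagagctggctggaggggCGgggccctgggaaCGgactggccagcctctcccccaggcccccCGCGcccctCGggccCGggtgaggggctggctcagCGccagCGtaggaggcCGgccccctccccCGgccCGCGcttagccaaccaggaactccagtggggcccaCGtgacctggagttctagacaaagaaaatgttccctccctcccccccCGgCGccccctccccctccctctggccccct
Dnmt3b: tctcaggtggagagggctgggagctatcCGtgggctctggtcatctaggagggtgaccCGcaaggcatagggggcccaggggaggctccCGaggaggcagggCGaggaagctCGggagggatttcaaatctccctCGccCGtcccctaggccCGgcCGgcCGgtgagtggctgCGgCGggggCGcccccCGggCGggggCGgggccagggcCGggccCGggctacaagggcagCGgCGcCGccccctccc
Dnmt3l: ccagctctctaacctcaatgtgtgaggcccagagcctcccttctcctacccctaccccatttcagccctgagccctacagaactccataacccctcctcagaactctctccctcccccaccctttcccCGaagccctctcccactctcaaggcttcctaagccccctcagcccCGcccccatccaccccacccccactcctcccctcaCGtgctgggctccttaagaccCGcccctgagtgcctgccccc
CpG density differed widely among these flanks. The 4 runs hold 38, 15, 21 and 4 CpGs in the order shown, against a median of 6 over all 32851 RefSeq windows of that length, of which 17.9% hold at least 20. The remaining window of Dnmt3a, chr12:3806910-3807159, overlaps the upstream one and holds 40 CpGs, and the remaining windows of Dnmt3l hold 5 and 3. Among genes that did not pass the test, the window of Tet2 held 51 CpGs, that of Tet3 17 and that of Tet1 15. The 3 windows of Dnmt1 held 2, 7 and 26 CpGs and the 2 of Uhrf1 held 10 and 30, so the counts of both sets of genes spread widely. The GC box GGGCGG, searched on both strands with overlaps counted, occurred in 11 of the 15 windows of the 8 genes and in 32.7% of all windows. All windows together had a median GC content of 52.4% and were not matched to those of the 8 genes. The overlapping Dnmt3a windows also share bases, so these figures do not measure an enrichment. The GC box was present in the windows of Dnmt3b and Dnmt3a. Of the 3 Dnmt3l windows only 1, the one shown, held it. The homeodomain core TAATTA, its own reverse complement, occurred in 0 of the 15 windows and in 4.84% of all windows. Gene-level FPKM does not say which start was used.

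With Dox, the RNAs of all 3 de novo methylation genes were higher, and those of the maintenance and TET genes did not pass the test. In limma on log2(FPKM + 1), 3 of the 8 genes were higher past an adjusted p of 0.05 and 0 were lower (0 lower also at an unadjusted p below 0.05). Over all 13931 tested genes 9.31% were called, 4.44% of them higher and 4.87% lower as shares of the tested genes. The groups did not overlap in 3 of the 8 genes, against 53.4% of all tested genes, 26.5% with Dox higher and 26.9% with Dox lower. The plot of FPKM by library shows the genes side by side.

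**Figure D1:**
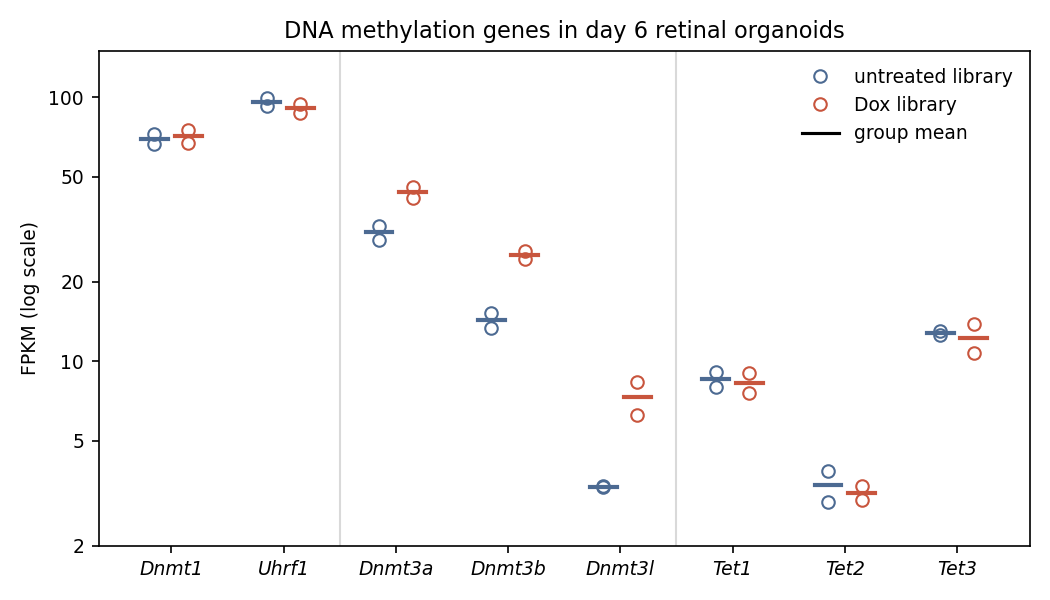
FPKM on a log axis of the 8 genes in the 2 untreated and the 2 Dox libraries (circles), with the mean of each group as a bar; vertical lines part maintenance, de novo and TET genes. For Dnmt3a, Dnmt3b and Dnmt3l both Dox circles lie above both untreated circles, and for the other 5 genes the groups overlap.

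Dnmt3a (ENSMUSG00000020661, GRCm38 chr12:3806007-3914443, plus strand), the de novo enzyme that predominates in neural tissue, was at 32.65 and 28.84 FPKM untreated and at 41.67 and 45.62 FPKM with Dox. Both Dox libraries lay above both untreated ones. The means were 30.7 ± 2.69 and 43.6 ± 2.79 FPKM (SD, n = 2 each), a ratio of 1.42. The log2 fold change was 0.49 (SE 0.0906, 95% interval 0.27 to 0.72, adjusted p = 0.029 in limma). This is the least stable of the 3 calls, as its adjusted p was 0.0561 after rescaling to TPM, 0.0534 without the intensity trend and 0.115 without the filter on low genes.

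Dnmt3b (ENSMUSG00000027478, GRCm38 chr2:153649450-153687730, plus strand), the de novo enzyme of the early embryo, was at 15.29 and 13.3 FPKM untreated and at 24.38 and 26.11 FPKM with Dox. The groups stood well apart relative to the replicates, with means of 14.3 ± 1.41 and 25.2 ± 1.22 FPKM (SD, n = 2 each), a ratio of 1.77. The log2 fold change was 0.78 (SE 0.095, 95% interval 0.54 to 1.02, adjusted p = 0.00674 in limma), the smallest adjusted p of the 8 genes. Without the filter the adjusted p was 0.0553.

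Dnmt3l (ENSMUSG00000000730, GRCm38 chr10:78041947-78063622, plus strand), the non-catalytic cofactor, was low throughout, at 3.37 and 3.33 FPKM untreated and at 8.33 and 6.24 FPKM with Dox. Both Dox libraries were higher, and they differed from each other far more than the untreated libraries did. The means were 3.35 ± 0.0283 and 7.29 ± 1.48 FPKM (SD, n = 2 each), a ratio of 2.17 and the largest of the 8. The log2 fold change was 0.92 (SE 0.147, 95% interval 0.55 to 1.29, adjusted p = 0.0182 in limma). Its longest annotated transcript has 1822 nt, so the lowest value rests on roughly 170 fragments, a counting error near 7.6%. Exons of Dnmt3l share 67 nt, 2.24% of their union, with Aire on the opposite strand, which was listed at 0.67 to 1.33 FPKM. Without the filter the adjusted p was 0.11.

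Leaving out 1 library ended the call of Dnmt3a in each of the 4 fits, that of Dnmt3b in 2 and that of Dnmt3l in 3. For Dnmt3a the adjusted p in limma was 0.0624 without untreated replicate 1, 0.167 without untreated replicate 2, 0.0892 without Dox replicate 1 and 0.159 without Dox replicate 2. For Dnmt3b it was 0.0506 without Dox replicate 1 and 0.0726 without Dox replicate 2, and the call held without either untreated library. For Dnmt3l it was 0.0818 and 0.0949 when untreated replicates 1 and 2 were left out in turn, and 0.0668 without Dox replicate 1, and the call held without Dox replicate 2 (0.03). The log2 fold changes themselves stayed positive in all 14 alternatives, between 0.41 and 0.58 for Dnmt3a, 0.65 and 0.88 for Dnmt3b, and 0.55 and 1.10 for Dnmt3l. A single gene with 2 libraries against 2 cannot reach an exact two-sided permutation p below 0.333, the value that each of the 3 genes had.

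**Figure D2:**
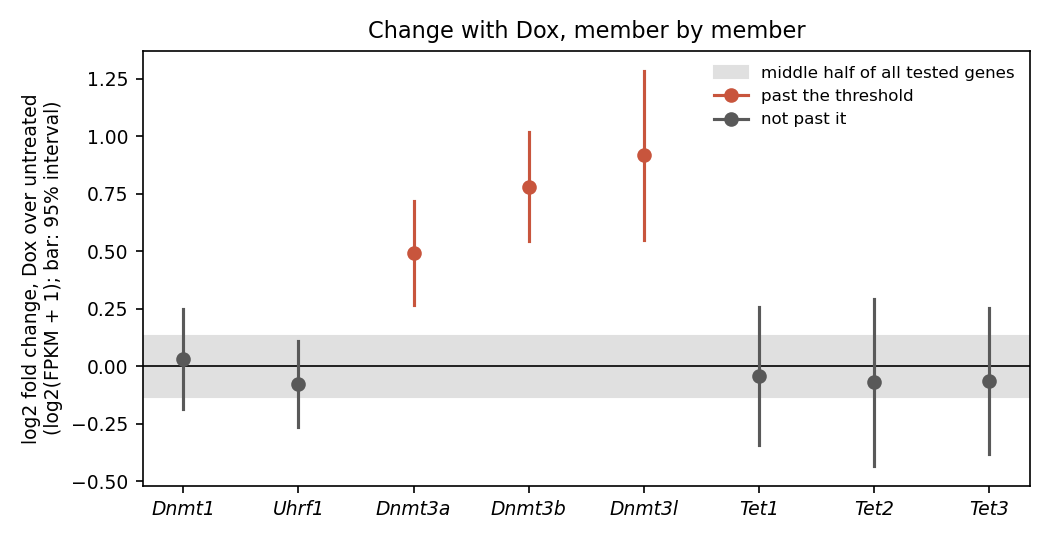
Log2 fold change of each gene, Dox over untreated on the log2(FPKM + 1) scale, with its 95% interval from limma; the grey band runs from the lower to the upper quartile of all tested genes, -0.14 to 0.13. The intervals of Dnmt3a, Dnmt3b and Dnmt3l lie above the band, and those of the other 5 genes include 0.

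Markers of cell types changed between the same libraries, and their part in the rise of the 3 genes was not tested. In a bulk sample, fewer cells of a type and less RNA per cell cannot be told apart. The marker counts here and in the next paragraph stand against all tested genes, of which 4.44% were called higher and 4.87% lower. Of 8 retinal progenitor markers 6 were higher with Dox and 0 lower (summed level 231 to 247 FPKM untreated and 910 to 1052 FPKM with Dox), led in level by Lhx2. Most of the untreated sum came from Pax6 and Sfrp1, which were not called. All 8 tested neuronal markers, Tubb3 and Stmn2 among them, were lower, from a sum of 157 to 161 FPKM to 82.6 to 86.6 FPKM over the 9 listed. Tubb3 gave most of these sums, at 118.53 and 116.78 FPKM untreated and 75.76 and 79.83 FPKM with Dox. Stmn2 fell further, from 11.47 and 10.55 to 2.27 and 2.29 FPKM. The call of Tubb3 was lost without untreated replicate 1 (log2 fold change -0.58, adjusted p = 0.0522 in limma). Of 8 dorsal forebrain and diencephalon markers 7 were lower and 1 higher, with sums of 312 to 318 FPKM untreated and 33.8 to 37.9 FPKM with Dox. All 3 tested pigment epithelium markers were higher, with sums over 6 genes of 2.37 to 2.46 and 61.3 to 61.9 FPKM. Of these, Mitf and Dct reached the level for testing only through the Dox libraries, with untreated means of 0.95 and 0.115 FPKM. Their direction was thus set by the filter. Some markers of the other lists likewise passed only through the group where they were high. Tyr and Mlana were at 0 in some libraries.

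Markers of pluripotent cells, a cell type that is known to express Dnmt3b and Dnmt3l, were detected in all 4 libraries, and which cells they came from was not tested. The 12 markers summed to 74.5 and 78.4 FPKM untreated and to 85.4 and 59.1 FPKM with Dox, so the Dox libraries lay on either side of the untreated ones. Of the 9 tested markers 0 were higher and 1 lower, against 4.44% and 4.87% of all tested genes. Before adjustment, 1 was higher and 2 lower at a p below 0.05 in limma. Pou5f1, the core pluripotency factor, was at 10.84 and 9.24 FPKM untreated and at 12.08 and 8.14 FPKM with Dox, and Dppa5a at 42.74, 47.37, 47.49 and 32.03 FPKM in the same order. Dppa5a alone thus gave most of the sum in each library. Between the Dox libraries, Dnmt3l, Pou5f1 and Dppa5a were higher in replicate 1, and Dnmt3a, Dnmt3b and Tet1 were higher in replicate 2. The markers were not all alike in this, as Klf4 and Tfcp2l1 were higher in replicate 2. Each of these differences rests on 1 pair of libraries. Without Dox replicate 1 the log2 fold change was 0.73 for Dnmt3l, 0.83 for Dnmt3b and 0.56 for Dnmt3a. Whether pluripotent cells had a part in the rise of these genes was not tested. Neural crest and mesenchyme markers summed to 28.7 to 30.1 FPKM untreated and 13.7 to 16.3 FPKM with Dox, with 1 of 7 higher and 2 lower. Surface ectoderm markers (50.1 to 55.1 against 51.6 to 58.9 FPKM; Trp63 and Krt5 at 0 in some libraries) and mesendoderm and extraembryonic endoderm markers (10.1 to 10.3 against 9.5 to 9.99 FPKM; Mixl1 and Afp at 0 in some libraries) had 0 of 4 and 0 of 1 tested genes past the threshold, and at an unadjusted p below 0.05 there was 1 lower and 0 higher among the former and 0 among the latter.

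The maintenance genes were the most abundant of the 8 and did not pass the test. Dnmt1 (ENSMUSG00000004099, GRCm38 chr9:20907209-20959888, minus strand) was at 72.85 and 66.5 FPKM untreated and at 67.16 and 75.42 FPKM with Dox. The groups overlapped, with means of 69.7 ± 4.49 and 71.3 ± 5.84 FPKM (SD, n = 2 each). The log2 fold change was 0.03 (95% interval -0.19 to 0.25, adjusted p = 0.865 in limma).

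Uhrf1 (ENSMUSG00000001228, GRCm38 chr17:56303321-56323486, plus strand), whose protein binds hemimethylated CpGs and recruits DNMT1, was at 99.46 and 92.6 FPKM untreated and at 87.5 and 94.38 FPKM with Dox. These groups overlapped as well, with means of 96.0 ± 4.85 and 90.9 ± 4.86 FPKM (SD, n = 2 each). The log2 fold change was -0.08 (95% interval -0.27 to 0.11, adjusted p = 0.592 in limma). Both genes are known to be expressed with DNA replication. Of 19 S phase and proliferation genes 0 passed the threshold in limma, against 9.31% of all tested genes (at an unadjusted p below 0.05, 0 higher and 1 lower). Their median log2 fold change was -0.042, against -0.0042 over all tested genes. Among them Mcm7, a subunit of the replicative helicase, had -0.06 and the mitotic kinase gene Cdk1 had 0.09.

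None of the 3 TET genes passed the test, and in each the groups overlapped (0 also at an unadjusted p below 0.05 in limma). Tet3 (ENSMUSG00000034832, GRCm38 chr6:83362373-83459084, minus strand) was the most abundant, at 12.98 and 12.56 FPKM untreated and at 10.74 and 13.78 FPKM with Dox. Its Dox libraries lay on either side of the untreated ones (log2 fold change -0.06, 95% interval -0.38 to 0.26, adjusted p = 0.813 in limma).

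Tet1 (ENSMUSG00000047146, GRCm38 chr10:62804570-62908996, minus strand), the TET enzyme best known from pluripotent cells, was at 8.0 and 9.13 FPKM untreated and at 7.59 and 9.0 FPKM with Dox. The means of 8.57 ± 0.799 and 8.29 ± 0.997 FPKM (SD, n = 2 each) differed by less than the replicates did. The log2 fold change was -0.04 (95% interval -0.34 to 0.26, adjusted p = 0.867 in limma). Tet2 (ENSMUSG00000040943, GRCm38 chr3:133463679-133545139, minus strand), which lacks the CXXC DNA-binding domain found in TET1 and TET3, was at 2.94 and 3.84 FPKM untreated and at 2.97 and 3.36 FPKM with Dox. Both Dox values lay between the untreated values (log2 fold change -0.07, 95% interval -0.43 to 0.29, adjusted p = 0.821 in limma). These intervals leave room for a change of either sign, and the signs of Tet1, Tet2, Tet3 and Dnmt1 turned in fits that left out 1 library. Tet1 had 0.04 without untreated replicate 2 and 0.07 without Dox replicate 1, Tet2 had 0.08 without untreated replicate 2, and Tet3 had 0.10 without Dox replicate 1. Dnmt1 had -0.03 without untreated replicate 2 and -0.05 without Dox replicate 2.

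Because FPKM is scaled to length, the levels could also be ordered. In both groups the order began with Uhrf1, Dnmt1, Dnmt3a, Dnmt3b, Tet3 and Tet1, and the libraries of neighbours did not overlap within either group. Tet2 and Dnmt3l overlapped at the bottom in the untreated libraries. With Dox the order at the bottom was Tet1, Dnmt3l and Tet2, where Dnmt3l overlapped Tet1 and stood above Tet2.

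The makeup of the catalytic DNMT RNA differed between groups with little spread within them. Of the summed FPKM of Dnmt1, Dnmt3a and Dnmt3b, the de novo genes took 39.7% and 38.8% in the untreated libraries and 49.6% and 48.7% in the Dox libraries. Dnmt3a alone went from 27.0% and 26.5% to 31.3% and 31.0%, and Dnmt3b from 12.7% and 12.2% to 18.3% and 17.7%. Both Dox libraries were higher than both untreated ones in all of these shares, with an exact permutation p of 0.333, the smallest possible. The shares are computed from the gene values given above, so they restate those values and are no separate evidence. The sum of the 3 genes was 120.8 and 108.6 FPKM untreated and 133.2 and 147.2 FPKM with Dox.

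Within the de novo pair the balance also differed, with 2.14 and 2.17 times as much Dnmt3a as Dnmt3b untreated and 1.71 and 1.75 times with Dox (exact permutation p = 0.333). The ratio of Uhrf1 to Dnmt1 was 1.37 and 1.39 untreated and 1.30 and 1.25 with Dox (exact permutation p = 0.333). Shares within the TET genes overlapped between groups. Tet3 made up 54.3% and 49.2% of their sum untreated and 50.4% and 52.7% with Dox, Tet1 33.4% to 35.8% over the 4 libraries, and Tet2 the remainder. The catalytic DNMT sum was 5.05 and 4.26 times the TET sum untreated and 6.25 and 5.63 times with Dox, again without overlap.

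**Figure D3:**
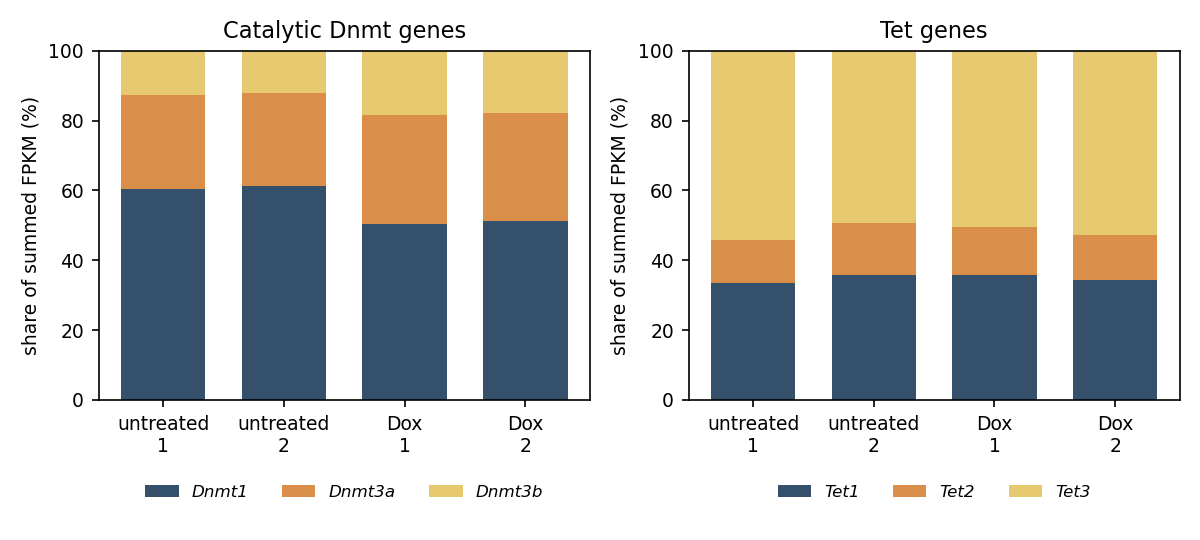
Share of each gene, in percent of summed FPKM, among Dnmt1, Dnmt3a and Dnmt3b (left) and among Tet1, Tet2 and Tet3 (right), 1 stacked bar per library. The part of Dnmt1 is 60.3% and 61.2% in the untreated bars and 50.4% and 51.3% in the Dox bars, while the TET bars overlap between groups.

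Other genes of the pathway were taken from lists by role. Most did not pass the threshold, as was true of all tested genes, of which 9.31% were called. The list counts below stand against that share, and no test of the lists as sets was run. Methyl-CpG readers are proteins that bind methylated DNA. Of 11 tested readers 0 were called in limma (at an unadjusted p below 0.05, 1 higher and 1 lower), with a median log2 fold change of 0.055. They include Mbd3, a subunit of the NuRD complex (log2 fold change 0.07), Uhrf2, the paralog of Uhrf1 (0.10), and Mbd2 (0.30, adjusted p = 0.209). Zbtb38, a zinc finger reader named after its value was seen, had the highest fold change among them, 0.44 (adjusted p = 0.115).

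Recruitment factors and cofactors bring the writers to replication forks and silenced loci. Of 25 tested genes 0 were called in limma (at an unadjusted p below 0.05, 1 higher and 2 lower), with a median of -0.062. The replication clamp gene Pcna had a log2 fold change of -0.06, the KAP1 gene Trim28 had 0.17 and Cdca7, a partner of the remodeller HELLS, had 0.16. Dppa3, whose protein keeps UHRF1 from chromatin in oocytes and early embryos, was named after its values were seen. It was at 4.42 and 5.42 FPKM untreated and at 3.18 and 2.21 FPKM with Dox, a log2 fold change of -0.69 (adjusted p = 0.0734, and 0.0493 with robust estimation).

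Among 15 tested genes of active demethylation and base excision 2 were higher and 1 lower, with a median of -0.0076. Gadd45g, a stress and differentiation gene linked to DNA demethylation, fell from 15.61 and 13.68 to 2.34 and 2.52 FPKM. Its log2 fold change was -2.19 (SE 0.109, adjusted p = 3.18e-04 in limma). Neil2, a DNA glycosylase gene, rose from 3.6 and 4.09 to 5.9 and 6.26 FPKM (log2 fold change 0.55, adjusted p = 0.0382), and Apobec3, a cytidine deaminase gene, from 4.72 and 5.03 to 7.52 and 8.02 FPKM (0.58, adjusted p = 0.0225). Apex1, the abasic site endonuclease gene, had the highest level of the list and a log2 fold change of -0.01, which turned positive with TPM and with quantile normalization. Gadd45g passed in all 14 alternatives, Neil2 in 6 of 13 and Apobec3 in 9 of 14. The latter calls were lost whichever library was left out, with adjusted p of 0.19 and 0.132 without untreated replicate 1, 0.109 and 0.103 without untreated replicate 2, 0.124 and 0.0871 without Dox replicate 1, and 0.173 and 0.129 without Dox replicate 2. The call of Neil2 was also lost with the replicate number as a block (adjusted p = 0.0599 in limma) and with TPM (0.0666). Without the filter on low genes both calls were lost, with adjusted p of 0.124 for Neil2 and 0.0824 for Apobec3.

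Of 11 tested TET partners, which guide TET proteins or supply or degrade their cofactors, 2 were higher and 1 lower, with a median of 0.24. The genes for a pair of CXXC proteins moved in opposite directions. Cxxc4, whose protein IDAX binds TET2 and lowers its level, fell from 18.87 and 20.44 to 11.71 and 12.98 FPKM (log2 fold change -0.63, SE 0.0909, adjusted p = 0.0125 in limma). Cxxc5, its paralog, rose from 32.73 and 28.56 to 45.22 and 57.16 FPKM (log2 fold change 0.72, SE 0.131, adjusted p = 0.0288). Sall1, a zinc finger transcription factor gene whose family is linked to TET recruitment, rose from 18.41 and 16.39 to 34.75 and 43.01 FPKM (log2 fold change 1.11, SE 0.122, adjusted p = 0.00473). Idh1, which makes the 2-oxoglutarate that TET enzymes need, had 0.27 (adjusted p = 0.0762), and Ogt, the O-GlcNAc transferase gene, had 0.0072.

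The calls of the CXXC genes depended on single libraries. For Cxxc4 the adjusted p in limma was 0.0564 and 0.0998 without untreated replicates 1 and 2, and 0.0759 and 0.0544 without Dox replicates 1 and 2. For Cxxc5 it was 0.066 and 0.148 without untreated replicates 1 and 2, and 0.113 without Dox replicate 2. The call of Sall1 held whichever library was left out. Without the filter on low genes the adjusted p was 0.0649 for Cxxc4, 0.141 for Cxxc5 and 0.0588 for Sall1.

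Methyl donor supply genes and germline genes gave no calls. Of 14 tested genes that make S-adenosylmethionine or feed the folate cycle 0 passed in limma (at an unadjusted p below 0.05, 2 higher and 1 lower), with a median of 0.016. Mat2a, the S-adenosylmethionine synthetase gene, had a log2 fold change of 0.12 and the serine hydroxymethyltransferase gene Shmt2 had 0.29 (adjusted p = 0.153). Germline genes such as Dazl are known targets whose promoters are methylated in somatic cells, so they serve as a readout of loss of methylation in other systems. Of 24 such genes 5 reached the level for testing, 0 were called in limma (at an unadjusted p below 0.05, 0 higher and 1 lower), and the list summed to 12.1 to 14.4 FPKM per library. The highest single value was 3.91 FPKM, for Stag3, which had a log2 fold change of -0.02.

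**Figure D4:**
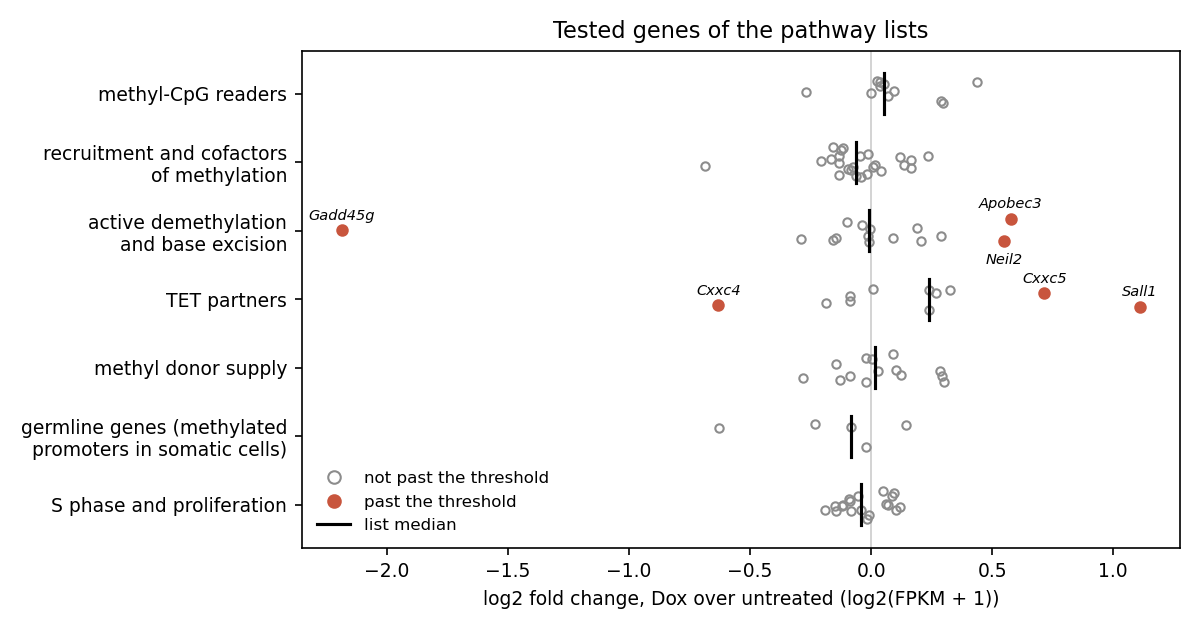
Log2 fold change, Dox over untreated on the log2(FPKM + 1) scale, of every tested gene in 7 pathway lists; filled points passed the threshold in limma and are named, open points did not, and the bar is the list median. Of the 6 named genes Gadd45g and Cxxc4 lie below 0, and most other points lie near 0.

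The tested genes whose profile over the 4 libraries was nearest to that of Dnmt3b, by Euclidean distance between mean-centred log2(FPKM + 1) values, were Rnf113a1 (distance 0.0201), Parvb (0.0425) and Snx30 (0.0543). Rnf113a1, a zinc finger gene, was at 19.89 and 17.15 FPKM untreated and at 31.8 and 33.52 FPKM with Dox. With 4 libraries in 2 groups, any gene with a like change between the groups comes close by this measure.

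**Figure D5:**
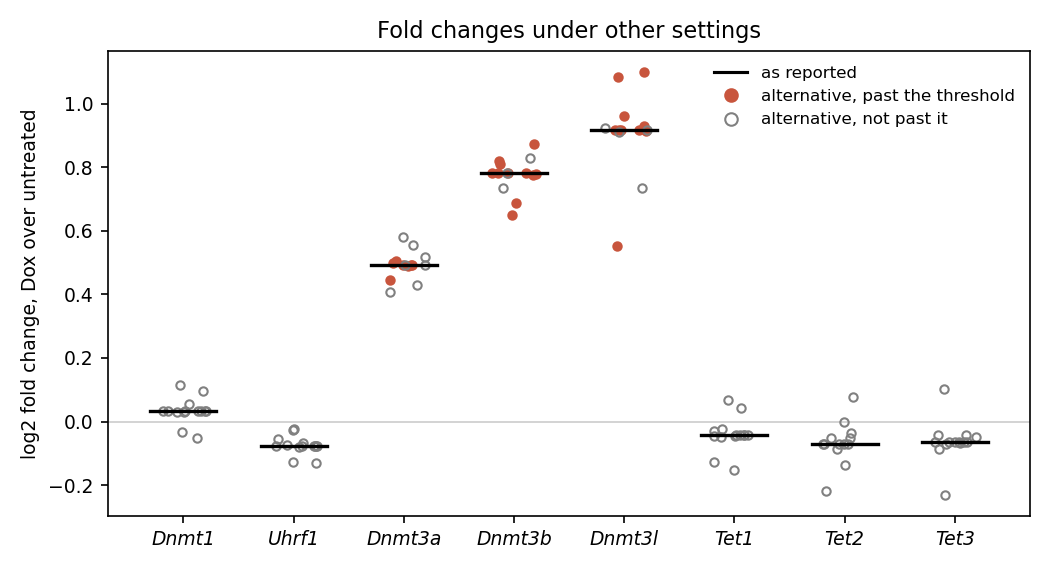
Log2 fold change of each gene as reported (bar) and under up to 14 other settings (points; filled where the adjusted p stayed below 0.05). All points of Dnmt3a, Dnmt3b and Dnmt3l lie above 0.4, filled in 7, 11 and 10 of 14 settings, and those of the other 5 genes lie between -0.23 and 0.11 with none filled. The filled points of Dnmt3l include the filter of 5 FPKM, which it passed only through its Dox libraries.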

How the data were processed

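The authors deposited FPKM values per gene and library, rounded to 2 decimals and not pooled; the submitters' processing notes list STAR, Cuffdiff and the build mm10. The annotation release and the strand setting are not given in the sources used here. These are not counts, and no count test was applied: values were taken as log2(FPKM + 1), genes averaging 1 FPKM or more were kept, and limma 3.58.1 in R 4.3.3 (eBayes with an intensity trend, two-sided, Benjamini-Hochberg over all 13931 tested genes, threshold 0.05) was fitted on the 4 libraries with no covariate. Folds on this scale understate the change of low genes. Depth was fitted from FPKM steps of genes with 1 transcript of 450 to 1200 nt and values under 0.5 FPKM, and this fit was tried on simulated data. The limma fit was tried on values drawn from its own fitted means and variances. The changes added there were larger than those of Dnmt3a, Dnmt3b and Dnmt3l, so that trial does not cover calls of their size. GENCODE M21 (GRCm38) gave gene coordinates and exon overlaps, and flanks came from RefSeq (GRCm38.p6), where all 8 symbols matched. Fragment numbers assume the longest annotated transcript, and intervals on counts cover counting error only. No batch could be separated, since the labels give 1 batch date.

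The members and lists were chosen with earlier results of these data known. Named are the 8 genes, Mettl3, Rax and eGFP, up to 4 called genes of largest fold change and up to 3 of the most abundant uncalled genes per pathway list, up to 2 of the most abundant markers per cell type, and the 3 genes nearest in profile to the member of lowest p. A few other genes are named where their values limit or qualify a result. Alternatives were a pseudocount of 0.1 or 5, no filter or one of 5 FPKM, TPM, median centring, quantile normalization, eBayes without trend or robust, the replicate number as a block, and each library left out.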

Additional observations from a re-analysis of the deposited data

How the results depend on the processing

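The directions of Dnmt3a, Dnmt3b and Dnmt3l held in every setting tried, and their calls did not. Testing all genes above 0 in any library (27532 genes) left 745 genes called against 1297, 336 higher and 409 lower, and 0 of the 8 genes: Dnmt3a at log2 fold change 0.49 (adjusted p = 0.115 in limma), Dnmt3b at 0.78 (0.0553) and Dnmt3l at 0.92 (0.11). The lists of active demethylation and TET partners then had 1 and 0 calls. A minimum mean of 5 FPKM, which tests fewer genes, gave 821 calls (408 higher, 413 lower), and Tet2 could not be tested there. Dnmt3l passed that filter only through its Dox libraries, with means of 3.35 FPKM untreated and 7.285 FPKM with Dox. Its call under that filter therefore adds no support. Dnmt3a lost its call with TPM (0.52, adjusted p = 0.0561) and without the trend (0.49, 0.0534). Robust estimation added 1 call each to the cofactor and methyl donor lists. Apex1 turned positive with TPM (0.0094) and quantile normalization (0.0625), and Pou5f1 with TPM (0.0091). Apart from the filters' construction, the cause was not tested.

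Leaving out 1 library at a time, where the lone library of its group is assumed to vary like the others, gave 610 to 695 called genes and 0 to 1 of the 8 members (Dnmt3b without either untreated library, Dnmt3l without Dox replicate 2, and 0 without Dox replicate 1). Log2 fold changes ranged from -0.051 to 0.11 for Dnmt1, 0.41 to 0.58 for Dnmt3a, 0.69 to 0.88 for Dnmt3b, 0.73 to 1.10 for Dnmt3l, -0.15 to 0.067 for Tet1, -0.22 to 0.079 for Tet2 and -0.23 to 0.10 for Tet3, and stayed negative for Uhrf1 (-0.13 to -0.02). Calls numbered 1 in each fit in active demethylation, 1 to 2 in TET partners and 0 to 1 among germline genes. Among other named genes that turned sign the ranges were -0.012 to 0.091 for Pax6, -0.48 to 0.076 for Dppa5a, -0.27 to 0.25 for Pou5f1, -0.045 to 0.18 for Mbd3, -0.15 to 0.025 for Pcna, -0.075 to 0.049 for Apex1, -0.13 to 0.14 for Ogt, -0.083 to 0.039 for Stag3 and -0.12 to 0.0046 for Mcm7.

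The titles number the replicates alike in both groups without saying that a number marks a shared origin, and the replicate differences of the groups had r = -0.043 over the tested genes. A fit with a replicate block called 1134 genes, 1062 of them shared with the 1297. All 3 de novo genes kept their calls under the block, at 0.49 (adjusted p = 0.0472) for Dnmt3a, 0.78 (0.00848) for Dnmt3b and 0.92 (0.0115) for Dnmt3l. At about 170 fragments, counting error limits Dnmt3l more than the other members.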
